A study of Mus musculus with 54 samples.

Results

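The chemokine ligand genes are the mouse genes whose symbols run Ccl, Cxcl, Xcl or Cx3cl and a number, with Pf4 and Ppbp added. Membership goes by symbol alone, but the group was chosen with earlier results of these data known. Of the 43280 gene symbols in the tables, 40 are members. Chemokines are small secreted proteins that bind receptors on leukocytes and steer their movement. They are grouped by the spacing of their first cysteines into the CC, CXC, C and CX3C families. Tissue macrophages are a known source of ligands that draw monocytes, neutrophils and eosinophils, and some ligands are made at rest while others appear only after a stimulus such as one that acts through NF-kB.

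The values come from 54 single mouse lung cells that carry the label interstitial macrophage, a cell of the tissue between the airspaces. SMART-seq2, which copies whole transcripts into cDNA, was run on every cell with small changes. The labels name no strain, genotype, treatment, animal, age, sort gate or plate, so the cells form 1 group of 1 sample. Cells are not replicates, and no p-value was made from them. Levels are TPM, a measure of relative abundance that corrects for transcript length. TPM keeps no sequencing depth, and each cell had between 522 and 3653 genes at 10 TPM or more, with a median of 1665. A cell is said to hold a gene when the gene reached 10 TPM in it, and cells are numbered 1 to 54 in the order of their records.

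The cells were also compared in 2 classes by the mean log2(TPM + 1) of Prg4, which encodes lubricin, Alox15, a lipoxygenase gene, and Fn1, the fibronectin gene, none of them a ligand. The 23 cells at 7 or more are called the high class and the 31 cells under 7 the low class. The score was under 2 or over 11 in all but 4 cells. Cells 29 and 1 of the low class had scores of 5.34 and 4.86, and cells 20 and 31 of the high class had 7.76 and 7.31. The score thus lay in 2 ranges with 4 cells between them, and it names no cell type. A list of 10 markers of serous cavity macrophages moved with it: all 10 reached 10 TPM in some cell of the high class and 4 in some cell of the low class. Holders in the high class ran from 3 of 23 cells (Car6) to 15 (Xdh). The summed level of the 10 ran from 0 to 3779 TPM in the high class (median 924) and from 0 to 1168 TPM in the low class (median 0.62). Genes of another list of 8 were held by 19 (Mcemp1) to 22 (Icam2, Ecm1) high-class cells and 0 (Lrg1, Padi4) to 13 (Ecm1, Itgam) low-class cells. Shares of all genes in each class were not computed beside these counts. Lyz2, a lysozyme gene, took a median of 14.8% of TPM in the high class and 2.63% in the low class. High-class cells also had more genes at 10 TPM or more, with a median of 1877 against 1413. The part of any of these in the class differences below was not tested.

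Markers of other cell types stood out in 3 cells. Cells 31 and 40 each held 7 of 10 alveolar macrophage markers, and cell 36 held 4 of 9 monocyte and 4 of 8 T or NK cell markers. No B cell or fibroblast gene of the lists reached 10 TPM in any cell. Across the 54 cells, 10 of 10 macrophage identity genes were present.

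Of the 40 ligands, 18 reached 10 TPM in at least 1 cell, or 45%, against 27% of all symbols. The number of cells that held each of these 18 ran from 47 down to 1. Ccl6 was held by 47 of 54 cells, Pf4 by 45, Ccl9 by 38, Cxcl2 by 34, Ccl24 by 26 and Cxcl16 by 25. Then came Ccl2 with 14 cells, Ccl3 with 12, Ccl4 with 9, Ccl7, Ccl12 and Cxcl13 with 6 each and Ccl8 with 5. Cxcl1, Cxcl12 and Cxcl14 were held by 3 cells each, Ccl27a by 2 and Ccl5 by 1. The remaining 22 ligands were held by no cell, which allows a share of up to 5.56% of cells for each.

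**Figure D1:**
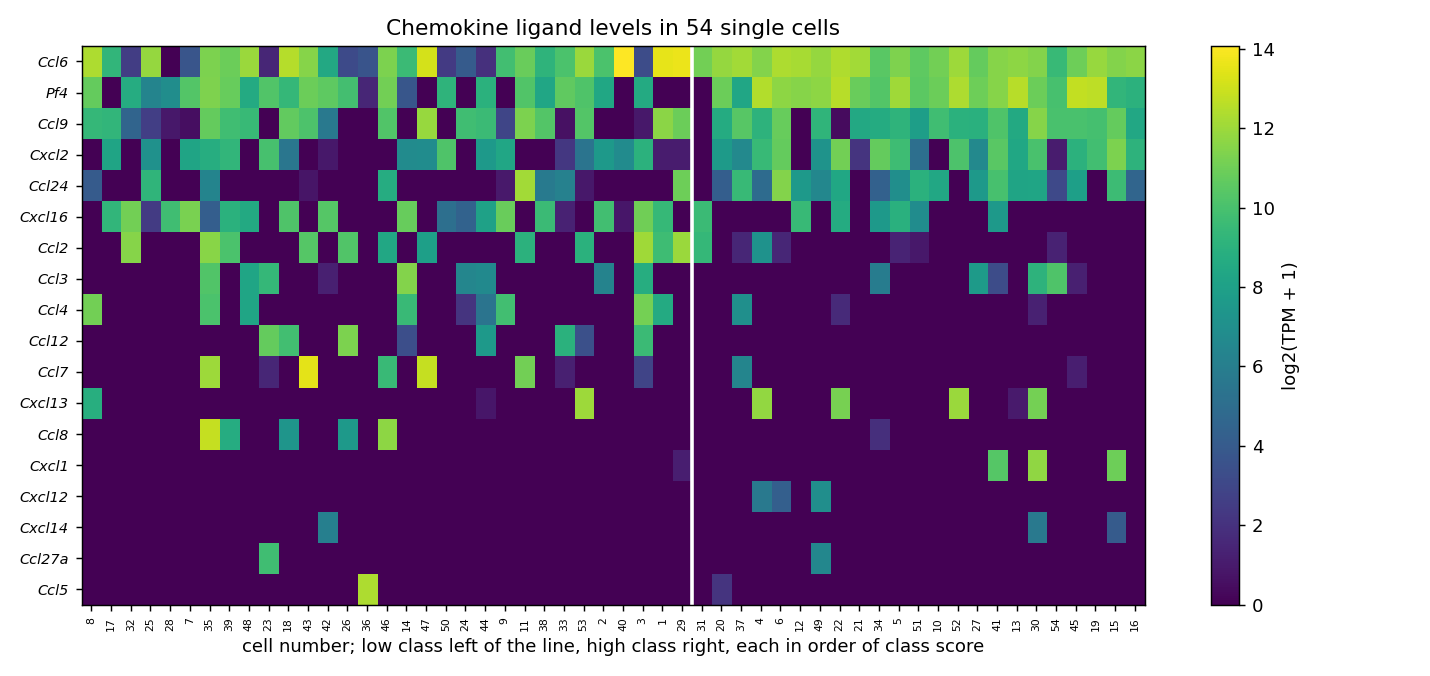
Level of the 18 ligands that reached 10 TPM in any cell, as log2(TPM + 1), with 1 column for each of the 54 cells and 1 row for each ligand in order of the number of cells that held it. Ccl6 and Pf4 fill most columns, Ccl24 is denser in the high class right of the line, and Ccl2, Ccl7, Ccl8 and Ccl12 lie mostly in the low class.

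The ligands held by no cell include whole functional groups. Cxcl9, Cxcl10 and Cxcl11, the interferon-induced ligands of Cxcr3 on T cells, were listed at 0 in each of the 54 cells. So were Ccl17 and Ccl22, ligands of Ccr4, and Ccl19, Ccl21a and Ccl21b, the ligands of Ccr7 that guide dendritic cells and naive T cells. Ccl1, Ccl11, Ccl20, Ccl25, Ccl26, Ccl27b, Ccl28, Cxcl3, Cxcl17, Ppbp and Xcl1 were at 0 as well, making 19 ligands. Cx3cl1, Cxcl15 and Cxcl5 were above 0 in 2, 2 and 1 cells, at no more than 1.35 TPM. Depth is unknown, so a value of 0 does not show that a transcript was absent.

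Every cell held at least 2 ligands. The number per cell had a median of 5, quartiles of 4 and 6 and a range of 2 to 11. Cells 28, 36 and 40 held 2 ligands, and cell 35 held 11, all of the low class. Together the ligands made up a median of 0.694% of a cell's TPM, from 0.098% to 2.42%. Ccl6 was the most abundant ligand in 22 cells and Pf4 in 11; in the other 21 cells the place was taken by 12 other ligands.

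High-class cells held a median of 6 ligands (range 3 to 9) and low-class cells 5 (range 2 to 11), and these ranges overlap over most of their length. Cells with more genes at 10 TPM also held more ligands: Spearman's rho was 0.45 over 54 cells, 0.58 over the 23 cells of the high class and 0.36 over the 31 of the low class. The points share the library each was counted in. Per 1000 genes at 10 TPM or more, the order of the classes turned, with medians of 2.75 ligands in the high class and 3.51 in the low class.

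**Figure D2:**
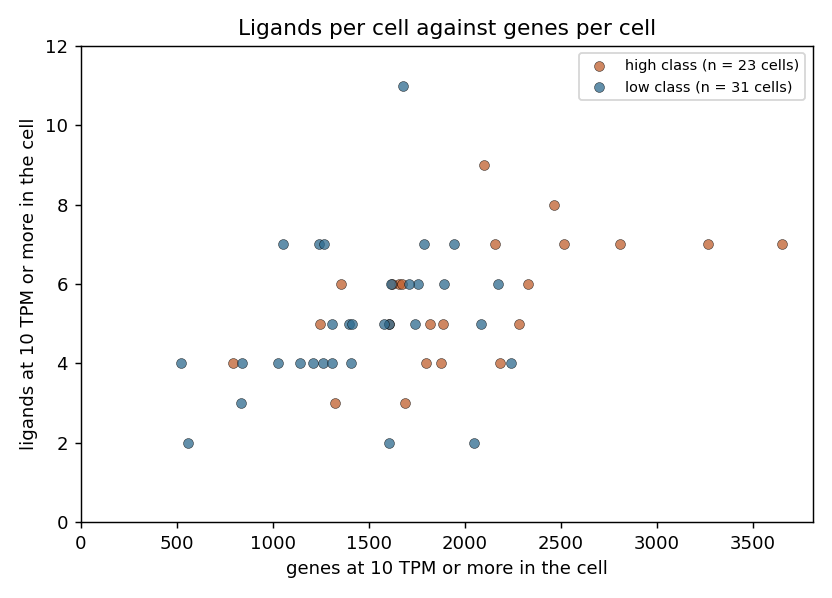
Number of ligands at 10 TPM or more (vertical axis) against number of genes at 10 TPM or more (horizontal axis), 1 point per cell, coloured by class. Cell 35, at 11 ligands and 1679 genes, lies above the other cells, and the high class reaches further to the right, up to 3653 genes.

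Ligands that reached 10 TPM in at least 5 cells, 13 in all, were compared between the classes by the difference of mean log2(TPM + 1), high minus low. Of these, 6 were higher in the high class by more than 1 (46.2%, against 30.2% of the 5593 genes compared): Ccl24, Pf4, Cxcl2, Ccl6, Ccl9 and Cxcl13. Another 6 were lower by more than 1 (46.2%, against 7.97% of the genes compared): Ccl2, Cxcl16, Ccl12, Ccl4, Ccl7 and Ccl8. Only Ccl3, at -0.59, lay between. Ccl12, Ccl8, Ccl7 and Ccl4 were held by 0, 0, 1 and 1 high-class cells. These ligands and Ccl2, held by 2 high-class and 12 low-class cells, passed the filter of 5 cells only through the low class. The filter thus nearly set their direction. With at least 10 cells required, 5 ligands were higher and 2 lower, but the shares of all genes under that filter were not computed. The median difference was -0.59 over the 13 ligands and 0.45 over all genes compared. With 1 sample there is no test of these differences. The exact binomial 95% intervals of the class shares, which cover counting error over cells only, did not overlap for 1 of the 13 ligands, Ccl24, and for 5.88% of the genes compared.

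**Figure D3:**
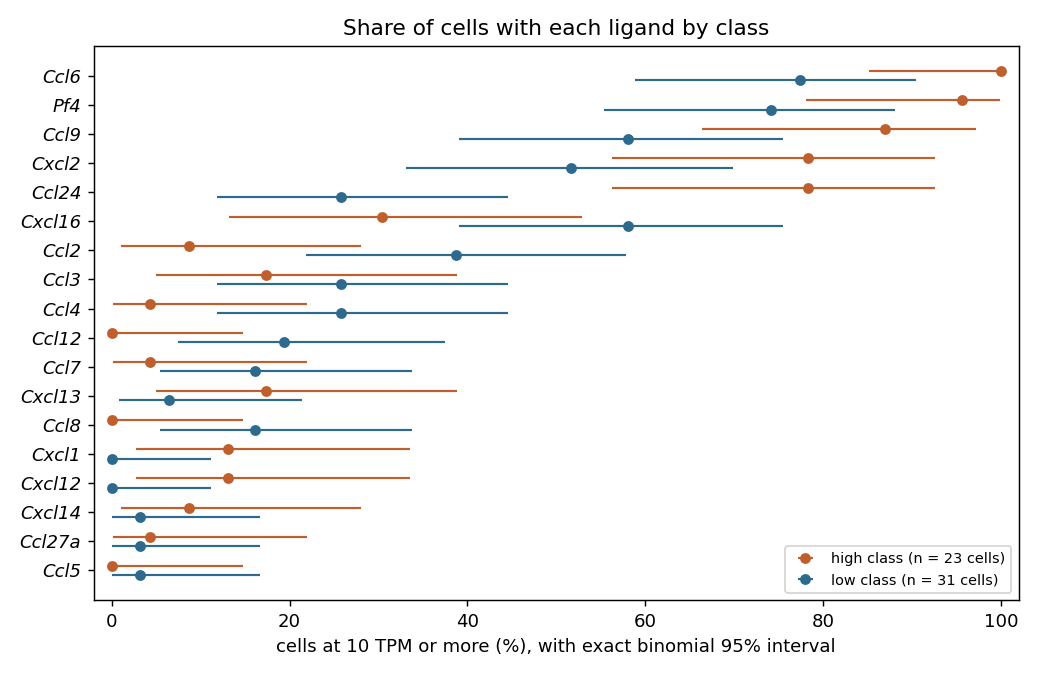
Share of cells at 10 TPM or more for each of 18 ligands (horizontal axis, %), in the 23 cells of the high class and the 31 of the low class, with exact binomial 95% intervals as bars. The intervals of Ccl24 stand apart, at 56.3 to 92.5% and 11.9 to 44.6%.

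Ccl6 and Ccl9, known from mouse as ligands of Ccr1 on monocytes and granulocytes, were the CC ligands held most widely. Ccl6 ranged from 710 to 5338 TPM in the high class, with a median of 2953, and from 0 to 17204 TPM in the low class, with a median of 1095. Each of the 23 high-class cells held it (100%, 95% interval 85.2 to 100%), and 24 of 31 low-class cells did (77.4%, 58.9 to 90.4%). The high-class values thus lay within the wider range of the low class, with a difference of 2.97 in mean log2 level. The highest Ccl6 level, 17204 TPM, was in cell 40, which carries alveolar macrophage markers. Next came cells 29 (12873 TPM), 1 (11968 TPM) and 47 (9104 TPM), also of the low class. Without cells 31, 36 and 40, Ccl6 was held by 22 of 22 high-class and 22 of 29 low-class cells.

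Ccl9 ranged from 0 to 2973 TPM in the high class (median 552) and from 0 to 3762 TPM in the low class (median 616). It was held by 20 of 23 high-class cells (87.0%, 66.4 to 97.2%) and 18 of 31 low-class cells (58.1%, 39.1 to 75.5%). More high-class cells held it, but the low-class cells that held it had more of it, with medians of 1181 TPM against 570 TPM. The difference of 2.32 in mean log2 level therefore rests on the number of cells. Of the 38 cells with Ccl9, 36 also held Ccl6, which is 94.7% of them and 76.6% of the 47 cells with Ccl6 (phi, the correlation of being held, 0.35).

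Pf4, or platelet factor 4, is a CXC chemokine best known from platelet granules. In the high class its level ran from 0 to 7055 TPM with a median of 1966, and in the low class from 0 to 2602 TPM with a median of 413. It was held by 22 of 23 high-class cells (95.7%, 78.1 to 99.9%) and 23 of 31 low-class cells (74.2%, 55.4 to 88.1%), and the difference was 3.74 in mean log2 level. The classes overlapped, but the 2 highest values, 7055 TPM in cell 45 and 6630 TPM in cell 19, were both in the high class. Ppbp, the other chemokine abundant in platelets, was at 0 in each of the 54 cells.

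No cell lacked both Ccl6 and Pf4, a pattern picked out after the values were seen. The 7 cells without Ccl6, all of the low class, had Pf4 at 119 to 1228 TPM. The 9 cells without Pf4, of which 8 were of the low class, held Ccl6 at 11.7 to 17204 TPM. Within the low class the pair had a phi of -0.32, with 16 cells holding both. Of the 7 cells without Ccl6, 6 had it at 1.86 to 8.73 TPM and cell 28 at 0, so most were under the threshold rather than at 0.

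In the low class, Pf4 was higher in cells with more of the Lyve1 and Folr2 programme, a list of 11 genes that includes Lyve1, Folr2, Cd163, Mrc1 and Timd4 and is known from resident tissue macrophages, many of them beside vessels. Spearman's rho with the mean level of the list was 0.64 over 31 cells, and in the high class it was 0.22 over 23 cells. The list splits by class. Timd4, Fcna and Ltc4s were higher in the high class, by 5.24, 6.44 and 5.41 in mean log2 level. The other 8 genes were lower by more than 1, beside 30.2% higher and 7.97% lower of all genes compared. The 2 rho values thus rest on unlike genes. Ccl8, at 0.60, and Ccl24, at 0.45, had the next highest rho with this list in the low class, and Cxcl16 had -0.30. The number of genes at 10 TPM or more had a rho of 0.36 with the list there, a source that the points share.

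**Figure D4:**
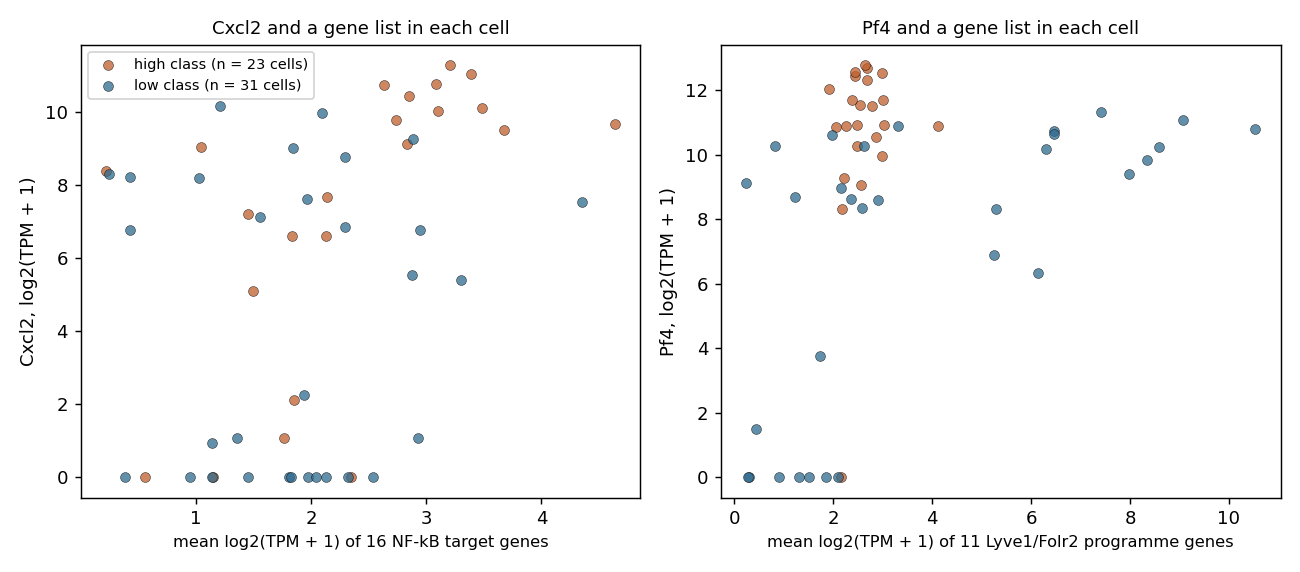
Left, Cxcl2 level against the mean level of 16 NF-kB target genes, and right, Pf4 level against the mean level of 11 Lyve1 and Folr2 programme genes, all as log2(TPM + 1), 1 point per cell coloured by class. On the left the high-class points climb together (rho 0.72) and the low-class points do not (rho 0.05); on the right the low-class points at a list level over 5 all lie at a Pf4 level over 6.

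Cxcl2, a CXC chemokine that draws neutrophils through Cxcr2, was held by 34 cells. High-class levels ran from 0 to 2510 TPM (median 534) and low-class levels from 0 to 1154 TPM (median 41.2). It was held by 18 of 23 high-class cells (78.3%, 56.3 to 92.5%) and 16 of 31 low-class cells (51.6%, 33.1 to 69.8%), a difference of 3.01 in mean log2 level. The highest values, 2510 TPM in cell 15 and 2133 TPM in cell 22, were in the high class, while the ranges overlap below 1154 TPM.

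Cxcl1, a ligand of the same receptor, was held by 3 high-class cells, at 3467 TPM in cell 30, 1970 TPM in cell 15 and 1297 TPM in cell 41. No low-class cell held it, which allows a share of up to 9.68%. Each of the 3 cells also held Cxcl2, as did 78.3% of all high-class cells. Cxcl3, the neighbouring gene of the same group, was at 0 in all 54 cells.

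The windows of 250 bases before the transcription start of these neighbouring genes are shown because the same 11-letter stretch lies in each, although 3 cells held Cxcl1, 34 held Cxcl2 and 0 held Cxcl3. The sequences are RefSeq's on GRCm38.p6, printed 5′ to 3′ on the gene's strand, and the build behind the TPM values was not given in the sources used here. Capitals mark matches to the NF-kB consensus, searched on both strands, and, on the gene's strand, to the TATA box letters TATAAA.
Cxcl1, chr5:90890995-90891244, plus strand: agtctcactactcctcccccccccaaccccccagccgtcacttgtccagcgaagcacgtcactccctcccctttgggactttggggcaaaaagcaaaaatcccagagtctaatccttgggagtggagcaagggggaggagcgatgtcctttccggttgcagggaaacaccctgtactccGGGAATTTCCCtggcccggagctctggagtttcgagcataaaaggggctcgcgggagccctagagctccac
Cxcl2, chr5:90903649-90903898, plus strand: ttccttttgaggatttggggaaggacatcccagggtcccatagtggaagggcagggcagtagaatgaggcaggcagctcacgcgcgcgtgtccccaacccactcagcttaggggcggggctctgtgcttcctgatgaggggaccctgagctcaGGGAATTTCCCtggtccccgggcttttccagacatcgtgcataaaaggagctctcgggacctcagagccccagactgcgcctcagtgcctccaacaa
Cxcl3, chr5:90785851-90786100, plus strand: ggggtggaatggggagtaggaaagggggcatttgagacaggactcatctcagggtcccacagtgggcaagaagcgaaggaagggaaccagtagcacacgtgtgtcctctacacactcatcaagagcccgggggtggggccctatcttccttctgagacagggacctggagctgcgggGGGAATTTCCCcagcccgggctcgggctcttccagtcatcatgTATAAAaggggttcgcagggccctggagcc

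The consensus matched on both strands at the same place, shifted by 1 base, so that 2 overlapping matches fill each stretch. It began 71 bases before the start in Cxcl1, 97 in Cxcl2 and 73 in Cxcl3. An NF-kB match was found in 7.25% of 32841 promoter windows of this length in the reference. Of the 29 ligands with an entry there, 7 had one: Ccl1, Ccl9, Ccl20, Cxcl1, Cxcl2, Cxcl3 and Cxcl10. Of the 8 ligands with an entry that were held by at least 5 cells, 2 had a match, Ccl9 and Cxcl2, and of the other 21 it was 5, which are near-equal shares. A match describes letters in the window and does not show a site in use.

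Cxcl2 levels were compared with those of NF-kB target genes. Spearman's rho with the mean level of a list of 16 such genes was 0.72 over the 23 high-class cells and 0.05 over the 31 low-class cells. The difference between the classes was not tested. Of single list genes, the 5 with the highest rho in the high class, named after their values were seen, were Nfkbiz at 0.78, Nfkbia, an inhibitor that NF-kB induces, at 0.69, Sod2 at 0.59, Nfkbid at 0.56 and Tnfaip3, a brake on NF-kB signalling, at 0.52. Of the 9 list genes held by at least 5 high-class cells, 8 had a rho above 0, and Nfkb1 had -0.34; of all 3291 genes held that widely, 63.0% had a rho above 0, with a median of 0.07. In the low class 3 of 7 list genes were above 0, beside 41.1% of all genes held that widely. Cxcl2 also had a rho above 0 with other lists in the high class, at 0.47 for immediate-early, 0.41 for interferon response and 0.35 for other cytokine genes. It was 0.13 for the Lyve1 and Folr2 programme, 0.09 for MHC class II genes and -0.42 for heat shock genes. Among the 18 high-class cells that held Cxcl2, rho with the NF-kB target list was 0.67, and among the 16 low-class holders it was -0.30. Spearman's rho of Cxcl2 with the number of genes at 10 TPM was 0.27 in the high class and -0.33 in the low class.

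Ccl9, whose neighbour Ccl6 was held with it in 36 cells, had matches to more of the searched motifs than Ccl6 did. The windows of this adjacent pair and of Pf4 are shown because they are the ligands most cells held. Capitals again mark the NF-kB consensus and TATAAA, and also the AP-1 letters TGANTCA and the PU.1 letters GAGGAAGT, both searched on both strands. PU.1 is a transcription factor of macrophages.
Ccl6, chr11:83593088-83593337, minus strand: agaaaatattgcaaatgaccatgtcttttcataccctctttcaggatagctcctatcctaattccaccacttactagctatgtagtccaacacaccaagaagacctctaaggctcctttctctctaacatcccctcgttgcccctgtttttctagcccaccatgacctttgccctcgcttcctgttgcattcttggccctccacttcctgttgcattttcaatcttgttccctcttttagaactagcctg
Ccl9, chr11:83578637-83578886, minus strand: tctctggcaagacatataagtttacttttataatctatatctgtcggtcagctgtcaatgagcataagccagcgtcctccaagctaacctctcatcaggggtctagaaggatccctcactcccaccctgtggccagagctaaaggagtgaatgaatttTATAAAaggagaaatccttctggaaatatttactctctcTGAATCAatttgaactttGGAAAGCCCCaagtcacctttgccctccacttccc
Pf4, chr5:90772185-90772434, plus strand: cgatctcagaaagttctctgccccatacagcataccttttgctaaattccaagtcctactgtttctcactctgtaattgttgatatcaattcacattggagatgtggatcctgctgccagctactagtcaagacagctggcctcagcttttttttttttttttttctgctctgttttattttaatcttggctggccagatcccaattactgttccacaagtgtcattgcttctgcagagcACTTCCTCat

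In Ccl9 the AP-1 letters began 53 bases, the NF-kB match 35 bases and TATAAA 92 bases before the start, with no overlap among them. Ccl6 had no match to any of the searched motifs in its window, and Pf4 had the PU.1 letters on the opposite strand, beginning 10 bases before the start. AP-1 letters were in 6.75%, TATAAA in 7.59% and the PU.1 letters in 2.44% of all promoter windows. Among the 13 ligands held by at least 5 cells, 8 had an entry, and Pf4 alone of these had the PU.1 letters.

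Ccl24, or eotaxin-2, draws eosinophils through Ccr3. In the high class its level ran from 0 to 2784 TPM, with a median of 196, and in the low class from 0 to 4516 TPM, with a median of 0. It was held by 18 of 23 high-class cells (78.3%, 56.3 to 92.5%) and 8 of 31 low-class cells (25.8%, 11.9 to 44.6%), a difference of 3.99 in mean log2 level. The highest value, 4516 TPM in cell 11, was in the low class, so the classes differ in how many cells held the gene. Medians among holders were 274 TPM in the high and 251 TPM in the low class. All 26 cells with Ccl24 held Ccl6, and 25 of them held Pf4.

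Cxcl16, a membrane-bound chemokine that binds Cxcr6 and also takes up oxidised lipoprotein, went the other way. High-class levels ran from 0 to 759 TPM with a median of 0, and low-class levels from 0 to 2424 TPM with a median of 33.7. It was held by 7 of 23 high-class cells (30.4%, 13.2 to 52.9%) and 18 of 31 low-class cells (58.1%, 39.1 to 75.5%), a difference of -2.85. Cell 31, with alveolar macrophage markers, had the highest high-class value, 759 TPM, and without it 6 of 22 high-class cells held the gene. Of the 13 ligands it had the lowest rho with the number of genes at 10 TPM (-0.43 over 54 cells). MHC class II genes were also lower in the high class: 7 of 8 were compared and all 7 were lower, beside 7.97% of all genes compared. Their median summed level was 41.5 TPM in the high class against 58942 TPM in the low class. Spearman's rho of Cxcl16 with the mean level of these genes was 0.40 over 54 cells, 0.15 in the high class and 0.21 in the low class. In the low class Ccl6 (0.43), Ccl9 (0.40) and Ccl2 (0.28) had a higher rho with these genes than Cxcl16. The part of these genes in the class difference was not tested. RefSeq's span of Cxcl16 overlaps that of Zmynd15, which 6 cells held, and the counting is not stated to use strand. Whether exons of the genes overlap, so that reads could be counted for either, was not checked.

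Ccl2, Ccl7, Ccl8 and Ccl12 form the monocyte chemoattractant group. Ccl2, Ccl7 and Ccl12 act through Ccr2 on monocytes, and mouse Ccl8 acts through Ccr8. At least 1 of the 4 was held by 16 of 31 low-class cells (51.6%, 33.1 to 69.8%) and by 3 of 23 high-class cells (13%, 2.78 to 33.6%), intervals that just overlap. No cell held all 4, and each of the 9 cells that held more than 1 was of the low class.

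Ccl2 was held by 12 low-class cells at 244 to 4289 TPM, with a median among them of 1146 TPM. In the high class it was held by cell 31, at 674 TPM, and cell 4, at 142 TPM. The difference was -2.92 in mean log2 level, and every high-class value lay under the median of the low-class holders. Cell 31 carries alveolar macrophage markers, and without it 1 of 22 high-class cells held Ccl2.

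Ccl7 was found beside Ccl2. Its 5 low-class holders were cell 43 at 11591 TPM, cell 47 at 7270 TPM, cell 35 at 4133 TPM, cell 11 at 2132 TPM and cell 46 at 753 TPM. All 5 held Ccl2, at 1296, 244, 3050, 519 and 347 TPM in the same order, so that Ccl7 stood above Ccl2 in each. The 1 high-class holder, cell 37, had 82.7 TPM of Ccl7 and 1.80 TPM of Ccl2. Phi of the pair was 0.46 over 54 cells and 0.55 within the low class.

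Ccl8 was held by 5 cells of the low class, at 7429 TPM in cell 35, 3247 TPM in cell 46, 420 TPM in cell 39, 189 TPM in cell 26 and 160 TPM in cell 18. All but cell 18 held Ccl2 (phi 0.39). No high-class cell held it, which allows a share of up to 13%, and the difference was -1.47.

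Ccl12 had other partners. Its 6 holders, all of the low class, were cell 26 at 2502 TPM, cell 23 at 1727 TPM, cell 18 at 882 TPM, cell 3 at 767 TPM, cell 33 at 499 TPM and cell 44 at 188 TPM. None of them held Ccl7, 2 held Ccl2 and 2 held Ccl8. Ccl6 was under 10 TPM in 4 of the 6, at 1.86 to 8.73 TPM, although only 7 of 54 cells lacked it. Phi of Ccl12 and Ccl6 was -0.57 over 54 cells and -0.52 within the low class, the lowest of the 78 pairs in both. All 6 held Pf4, as did 74.2% of all low-class cells.

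Ccl3 and Ccl4, ligands that draw monocytes and T cells, were held by 12 and 9 cells. In the low class, 8 cells held Ccl3 at 76.7 to 2868 TPM and 8 held Ccl4 at 41.3 to 2241 TPM, and 5 cells held both (phi 0.49 over 31 cells). In the high class, 4 cells held Ccl3, at 1177, 544, 206 and 58.7 TPM, and another, cell 37, held Ccl4 at 126 TPM. The class difference was -2.02 for Ccl4 and -0.59 for Ccl3. RefSeq's spans of the 2 genes overlap. Whether their exons overlap, so that reads of one could be counted for the other, was not checked. Of the 8 low-class cells with each gene, 7 held Cxcl16 too (phi 0.35 for each pair), beside 58.1% of all low-class cells.

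Cxcl13, which draws B cells through Cxcr5, was high in few cells. The 4 high-class holders had 3894, 3557, 2286 and 2238 TPM, and the 2 low-class holders 4067 and 452 TPM. The share was 17.4% (4.95 to 38.8%) in the high class and 6.45% (0.79 to 21.4%) in the low class, with intervals that overlap widely, and a difference of 1.35.

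The 5 remaining ligands were held by 3 or fewer cells. Besides Cxcl1, Cxcl12, the ligand of Cxcr4, was at 121, 51.3 and 18.2 TPM in 3 high-class cells. Cxcl14 was at 50.8 and 15.4 TPM in 2 high-class cells and at 67.6 TPM in 1 low-class cell. Ccl27a was at 864 TPM in cell 23 and 91.5 TPM in cell 49, and its reads may be split with its near-identical copies. Ccl5, a ligand typical of T and NK cells, was held by cell 36 alone, at 5218 TPM, the cell with 4 T or NK cell and 4 monocyte markers. Without cells 31, 36 and 40 no cell held Ccl5.

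Of the 78 pairs among the 13 ligands, 7 had a phi of 0.3 or more over the 54 cells, or 8.97%, against 4.78% of all pairs of genes held by 5 to 47 cells. In falling order these were Ccl2 with Ccl7, Ccl2 with Ccl8, Ccl6 with Ccl24, Ccl3 with Ccl4, Ccl6 with Ccl9, Pf4 with Ccl24 and Ccl9 with Ccl24. With presence at 1 TPM the count was 4 of 78 (5.13%, against 3.73% of gene pairs), and with presence above 0 TPM it was 3 (3.85%, against 3.16%). Within the low class 10 of 78 pairs reached 0.3 (12.8%, against 8.33% of gene pairs). Within the high class 6 of 45 pairs did (13.3%), beside 13.4% of gene pairs. Pairs whose genes lie within 1 Mb of each other on a chromosome, 13 of the 78, held 4 of the 7 pairs, and their median phi was 0.17 against 0.02 for the other 65. In the low class these medians were 0.05 and 0.02, with 4 of 13 and 6 of 65 pairs at 0.3 or more. No such values were computed for neighbouring pairs of all genes, and the spans of Ccl3 and Ccl4 overlap.

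**Figure D5:**
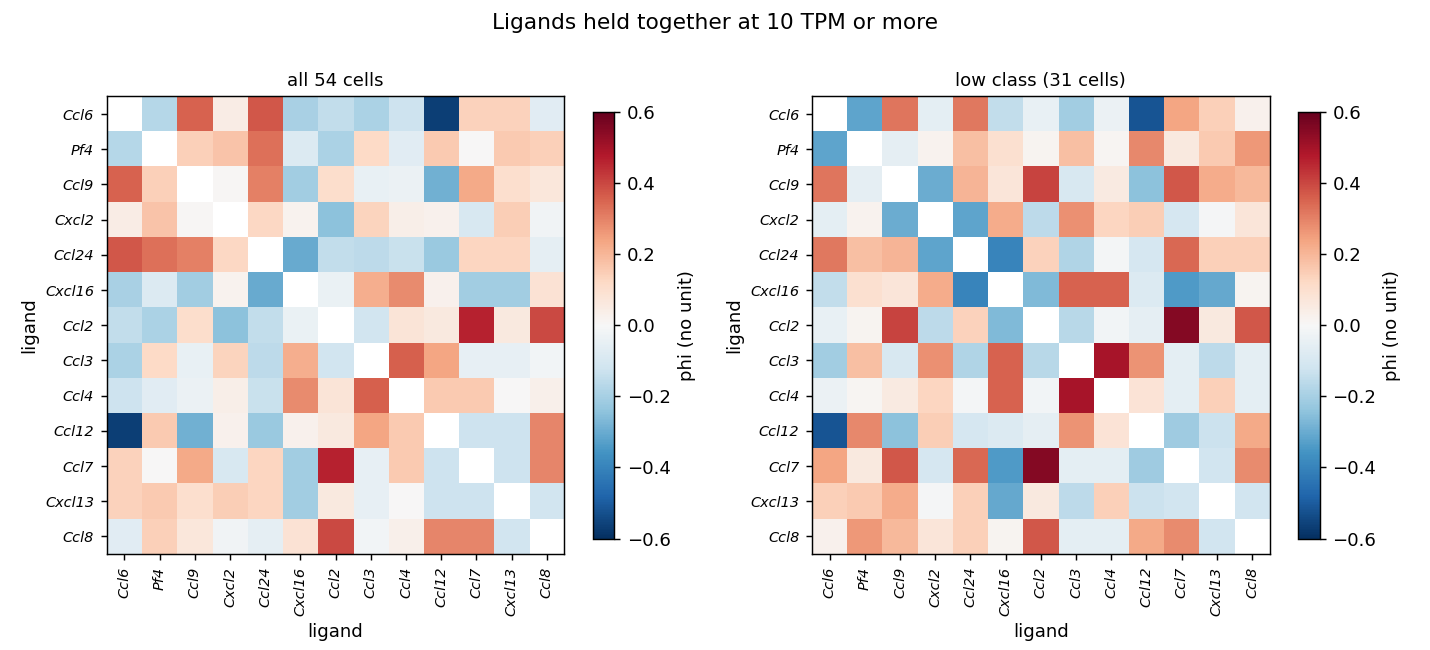
Phi between the 13 ligands held by at least 5 cells, over all 54 cells on the left and over the 31 low-class cells on the right (red above 0, blue below, diagonal blank). Ccl2 with Ccl7 and Ccl3 with Ccl4 are red in both panels, and Ccl12 with Ccl6 is the darkest blue, at -0.57 and -0.52.

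Some combinations of the widely held ligands, chosen after the values were seen from those more common in the high class, are given as counts. Ccl6, Ccl9, Pf4 and Cxcl2 together were held by 17 of 23 high-class cells (73.9%, 51.6 to 89.8%) and 4 of 31 low-class cells (12.9%, 3.63 to 29.8%). With Ccl24 added, it was 15 of 23 and 1 of 31, the 1 being cell 35. Since each member was more common in the high class, that choice sets the direction of these counts. With Cxcl16, which was more common in the low class, added as well, it was 4 of 23 and 1 of 31.

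Of 23 chemokine receptor genes, 7 reached 10 TPM in any cell, a share near the 27% of all symbols. Ccr1, the receptor of Ccl6 and Ccl9, was held by 18 high-class and 9 low-class cells, and 26 of these 27 held Ccl6, as did 87.0% of all cells. Ccr2 was held by 1 high-class and 12 low-class cells, and 6 of these 12 low-class cells also held its ligand Ccl2, as did 38.7% of all low-class cells. Cxcr2, Ccr3, Cxcr6, Cxcr5 and Ccr8, the receptors of Cxcl2, Ccl24, Cxcl16, Cxcl13 and mouse Ccl8, were held by none.

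Other inducible genes were listed for comparison. Of 15 cytokine genes, 3 were held by at least 5 cells, all higher in the high class by more than 1, beside 30.2% of all genes compared: Osm (3.33, 11 high-class and 3 low-class cells), Il6 (2.80, 7 and 0 cells) and Il18 (1.30, 6 and 3 cells). These 3 passed the filter of 5 cells only through the high class, so the filter nearly set their direction. Of 16 NF-kB target genes, 11 were compared, 3 higher and 1 lower in the high class, counts near the 30.2% and 7.97% of all genes compared. Their median difference was 0.51, beside 0.45 for all genes compared. The 4 held most widely were Nfkbia (1.90), Nfkbiz (0.89), Ier3 (1.32) and Tnfaip3 (-1.20). Of 14 immediate-early genes, 13 were compared, 2 higher and 4 lower, beside the same 30.2% and 7.97%, with a median of -0.79. Dusp1 (0.53), Fos (-1.02), Zfp36 (-1.07) and Ier2 (2.57) were held most widely. Of 11 interferon response genes, 5 were compared and 1, Gbp2, was higher (1.45), again beside 30.2%.

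For each ligand held by 10 to 44 cells, the other genes closest to it over the 54 cells were taken by Spearman's rho among 2940 genes held by at least 10 cells. These were Mgl2 (0.50), St8sia4 and Snx5 for Ccl2, Cfp (0.64), Lyz2 and Clec4d for Ccl24, and H2-Aa (0.54), Gsn and Gatm for Cxcl16. For Cxcl2 they were Plxdc2 (0.53), Padi4 and Pitpnc1, and for Ccl9 S100a6 (0.55), Zyx and Fam173a. Gm15662 (0.47), RP23-109J14.3 and Gm22662 were closest to Ccl3. Several of these genes differ between the classes themselves, such as Clec4d (7.69) and H2-Aa (-7.72), so their rho carries the class difference.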

How the data were processed

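The data are 54 tables, 1 per cell, each from a paired-end Illumina run of 1 SMART-seq2 library, per the labels' protocols. The authors deposited TPM values, and per the submitters' processing notes the tool was RSEM. Its version, the aligner, the build and the gene models are not given in the sources used here. Members were matched by symbol. Presence was 10 TPM or more, and levels were log2(TPM + 1), so that differences understate the change of low genes. Genes at 10 TPM or more in at least 5 cells were compared between classes by the difference of means, with no test, since the cells are 1 sample. Co-presence was phi, the Pearson correlation of held or not held. Shares carry exact binomial (Clopper-Pearson) 95% intervals; a share of 0 carries the limit that 3 cells of the total give. Intervals and limits cover counting error only. Every ligand is named; ligands in at least 5 cells are given in full, and those in fewer with each value at 10 TPM or more. For other lists, genes in at least 5 cells were counted and up to 4 named. The 3 nearest genes by rho were taken for ligands in 10 to 44 cells. RefSeq tables (GRCm38.p6) gave neighbours, overlaps, promoter windows and the older symbol of 1 list gene, Adgre1. The members, class and lists were chosen with earlier results of these data known. Python 3.11.15, pandas 2.3.3, numpy 2.4.6 and scipy 1.17.1 were used; the steps were tested on simulated data.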

Additional observations from a re-analysis of the deposited data

How the results depend on the processing

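The number of ligands present, 18, lay between 17 and 21 under 7 alternatives, and the median per cell, 5, at 5 or 6. These took presence at above 0, 1 or 100 TPM, left out cells 31, 36 and 40, or rescaled TPM without Lyz2 or without mitochondrial genes; leaving out cells 1, 20, 29 and 31, whose scores lay between 2 and 11, was chosen after seeing the data. The rho of ligands with genes per cell, 0.45, lay between 0.32 and 0.58 under 9 alternatives. The difference in median ligands between classes stayed at 1 under 10 alternatives and was -0.763 per 1000 genes at 10 TPM or more, the measure that divides by the larger gene number of the high class. The 7 ligand pairs held together became 3 with presence above 0 TPM, 4 at 1 TPM and 4 when only ligands in at least 10 cells were taken, which leaves 28 pairs; for the thresholds the cause was not tested. The 6 ligands higher in the high class were 5 to 7 under 11 alternatives. The 6 lower ones stayed at 6 under 10 and were 2 when genes needed 10 cells, since that tests fewer genes. For single ligands, 116 of 117 class differences kept their sign and their side of 1; that of Cxcl13 was 0.97 with a pseudocount of 10. Of 91 shares of cells, 87 stayed within the interval at 10 TPM. Outside it were Ccl6 at 98.1% with presence above 0 or at 1 TPM, Ccl9 at 83.3% above 0 and Ccl24 at 31.5% at 100 TPM. No paired analysis was possible because all cells form 1 group. TPM keeps no depth, which limits what a level of 0 shows.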
